A study of Homo sapiens with 12 samples.

Results

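The 10 genes described here are LIF, LIFR, IL6ST, CLCF1, CNTFR, OSMR, IL11RA, IL6R, STAT3 and SOCS3, a list of ligands, receptors and signal proteins of the gp130 cytokine family that was set by name. All 10 were among the 55765 gene symbols counted in each library. RNA was sequenced from SH-SY5Y cells, a neuroblastoma line subcloned from SK-N-SH, in 12 libraries from 2 experiments. Every group received all-trans retinoic acid (ATRA) for 7 days to drive neuronal differentiation. In the co-treatment experiment, 3 co-treated libraries also had hydrogen peroxide (H2O2) throughout the 7 days, and 3 control libraries had ATRA alone. In the pre-treatment experiment, 3 pre-treated libraries were given H2O2 72 h before ATRA, and 3 control libraries had none. The series text states a dose of 10 mM H2O2, whereas the methods of the study state the same figure in micromolar units, and the difference was not resolved. A single cell line was used, and no source states that the replicates were separate cultures, so p-values measure only the spread between these libraries, which may be technical.

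Cytokines of this family signal through gp130, the shared receptor chain encoded by IL6ST. LIF binds LIFR and gp130, CLCF1 binds CNTFR, LIFR and gp130, and IL-6, IL-11 and oncostatin M use gp130 with IL6R, IL11RA or OSMR. The receptors activate JAK kinases and the transcription factor STAT3, and STAT3 induces SOCS3, a feedback inhibitor of gp130 signalling. LIF and CNTF-type cytokines are known in sympathetic neurons for shifting transmitter use from noradrenaline to acetylcholine and peptides such as VIP.

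Reads on genes ranged from 27576276 to 98287391 per library. Pre-treatment controls 1 and 2 stood apart, with 0.800 and 0.830 reads outside annotated genes per read on a gene, against 0.200 in control 3, 0.343 to 0.462 in the pre-treated libraries and 0.263 to 0.429 in the co-treatment experiment. The clustering shown by the study for this experiment has controls 1 and 2 but not control 3, so the pre-treatment comparison was made over all 6 libraries and over the 5 without control 3. The part of these differences in the results was not tested. Over the 5 libraries, both controls had more reads outside genes than all pre-treated libraries. In that comparison this difference and the treatment cannot be told apart. Neuroblastoma and neuronal markers summed to 5059 to 5222 CPM (read counts scaled to library size with TMM factors) in co-treatment controls. They summed to 3995 to 4707 CPM in co-treated libraries, 3786 to 4998 CPM in pre-treatment controls and 4100 to 4410 CPM in pre-treated libraries. Over the 12 libraries immune markers summed to 0.213 to 1.60 CPM and endothelial markers to 0.0213 to 0.272 CPM. Because the samples are bulk RNA, a change in the number of cells that express a gene and a change in RNA per cell cannot be told apart.

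**Figure D1:**
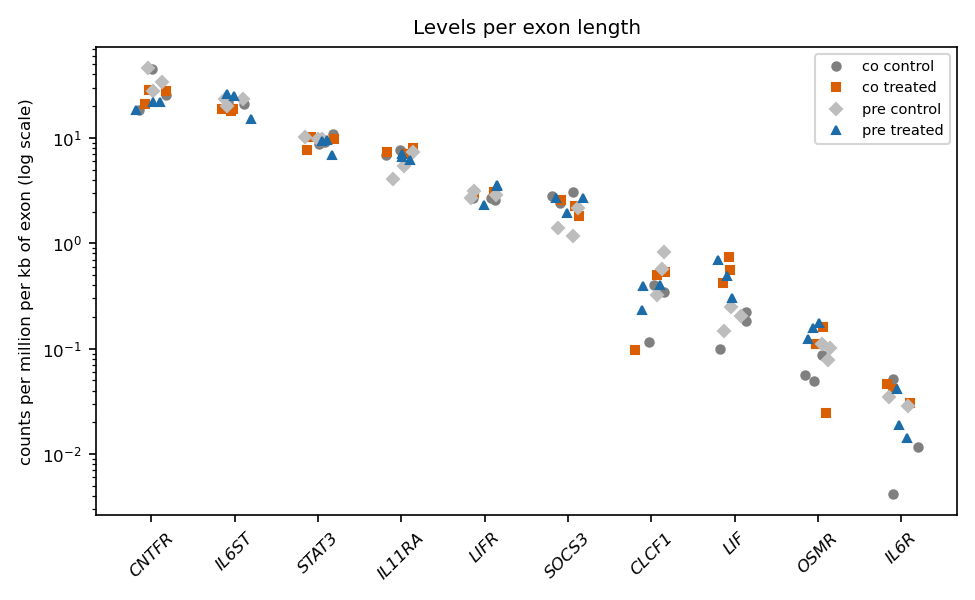
Level of each gene in CPM per kb of exon (log scale) in the 12 libraries, 1 point per library, coloured by group; a library with 0 counts for IL6R is not drawn. CNTFR and IL6ST were the highest, with means of 28.0 and 20.9, and IL6R was the lowest with 0.0270.

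Per length, CNTFR, IL6ST, STAT3, IL11RA, LIFR and SOCS3 were above both ligands, and OSMR and IL6R were below them. Mean CPM per kb of exon over the 12 libraries was 28.0 for CNTFR, 20.9 for IL6ST, 9.32 for STAT3, 6.74 for IL11RA, 2.93 for LIFR and 2.25 for SOCS3. It was 0.394 for CLCF1, 0.360 for LIF, 0.103 for OSMR and 0.0270 for IL6R. The order of neighbours held in all 12 libraries for IL6ST over STAT3, STAT3 over IL11RA, IL11RA over LIFR, SOCS3 over CLCF1 and LIF over OSMR, and in 11 for OSMR over IL6R. CNTFR exceeded IL6ST in 9 of 12 libraries, LIFR exceeded SOCS3 in 10, and CLCF1 exceeded LIF in 6, so CLCF1 and LIF were not separated by level. By these levels the cells held transcripts for the LIF receptor pair and for the CNTF and IL-11 receptors, and few for the specific chains of oncostatin M and IL-6.

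LIF, on chromosome 22 (30636442 to 30642748, hg19), was higher in every treated library than in every control library of both experiments. In the co-treatment experiment it stood at 0.857, 0.384 and 0.702 CPM in the controls (42, 18 and 24 reads) and at 1.64, 2.17 and 2.88 CPM in the co-treated libraries (46, 135 and 148 reads). In the pre-treatment experiment it stood at 0.799, 0.570 and 0.960 CPM in the controls (44, 26 and 63 reads) and at 2.69, 1.88 and 1.18 CPM in the pre-treated libraries (260, 128 and 94 reads). The lowest treated library, at 1.18 CPM, was above the highest control, at 0.960 CPM. LIF was the single member with this pattern over the 12 libraries, which 0.557% of 24407 genes showed in that direction. None of the 10 was lower in all 6 treated libraries than in all 6 controls, which 0.377% of genes were.

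**Figure D2:**
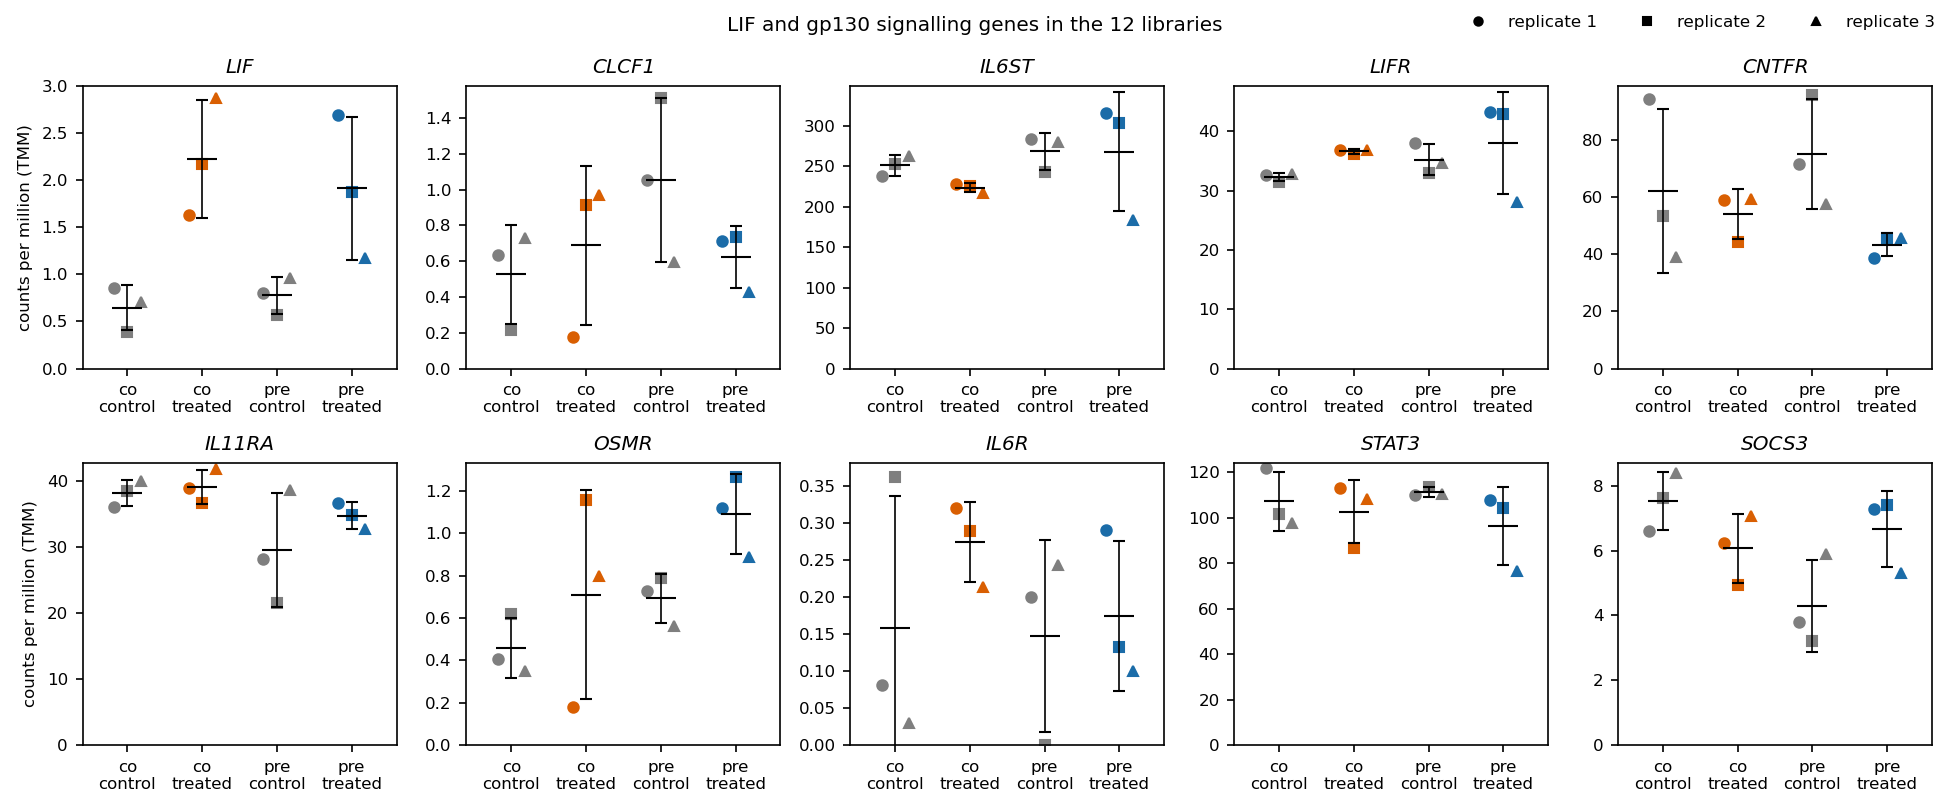
CPM (TMM-scaled) of the 10 genes by group, 1 point per library with the marker giving the replicate; the horizontal bar is the group mean and the error bar the SD of 3 libraries. LIF in the 6 treated libraries lies between 1.18 and 2.88 CPM, above all 6 controls.

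LIF averaged 0.647 ± 0.241 CPM in co-treatment controls and 2.23 ± 0.623 CPM in co-treated libraries (SD, n = 3 each), a log2FC of 1.79 (SE 0.37) or 3.46-fold. Its FDR in edgeR's quasi-likelihood test was 0.0572, so it was not called at 0.05. The FDR was 0.000540 with DESeq2, 0.00106 with edgeR's exact test and 0.0479 with RLE size factors, and 0.251 when all 12 libraries shared 1 estimate of the spread. Leaving out 1 library at a time gave log2FC values from 1.51 to 2.07 and FDR values from 0.0235 (without control 1) to 0.407 (without co-treated library 3).

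In the pre-treatment experiment LIF averaged 0.776 ± 0.196 CPM in controls and 1.92 ± 0.759 CPM in pre-treated libraries (SD, n = 3 each), a log2FC of 1.32 (SE 0.41) with an FDR of 0.320, not called. Over 5 libraries the log2FC was 1.55 (SE 0.41) with an FDR of 0.0271. That call was lost without control 1 (FDR 0.0678), control 2 (0.165), pre-treated library 1 (0.0849) or pre-treated library 2 (0.0618). The response of LIF did not differ detectably between the experiments, with a difference of -0.49 (SE 0.55) in log2FC and an FDR of 0.807.

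Of the 10 genes, 0 were called after co-treatment, where 0.598% of 22089 genes were called, and LIF had an unadjusted p of 0.000362, the single member under 0.05, against 8.15% of all genes. Over the 6 pre-treatment libraries 0 were called, where 0.0242% of 24743 genes were called, and 2 members (LIF and CNTFR) had an unadjusted p under 0.05, against 11.2% of all genes. Over the 5 libraries 4 were called, where 26.1% of 26350 genes were called. LIF, SOCS3 and IL11RA were higher, as 13.2% of all genes were, and CNTFR was lower, as 12.8% were, and 5 members had an unadjusted p under 0.05, against 40.5% of all genes. For the difference between the responses 0 were called, where 0.0287% of 24407 genes were called (0.0246% higher and 0.0041% lower after pre-treatment), and 1 (SOCS3) had an unadjusted p under 0.05, against 8.94% of all genes. DESeq2 called LIF after co-treatment and CNTFR over the 6 pre-treatment libraries. The median log2FC of the 10 genes was 0.11 after co-treatment, 0.18 over 6 and 0.36 over 5 pre-treatment libraries, against medians of -0.001, -0.007 and 0.011 over all genes tested.

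**Figure D3:**
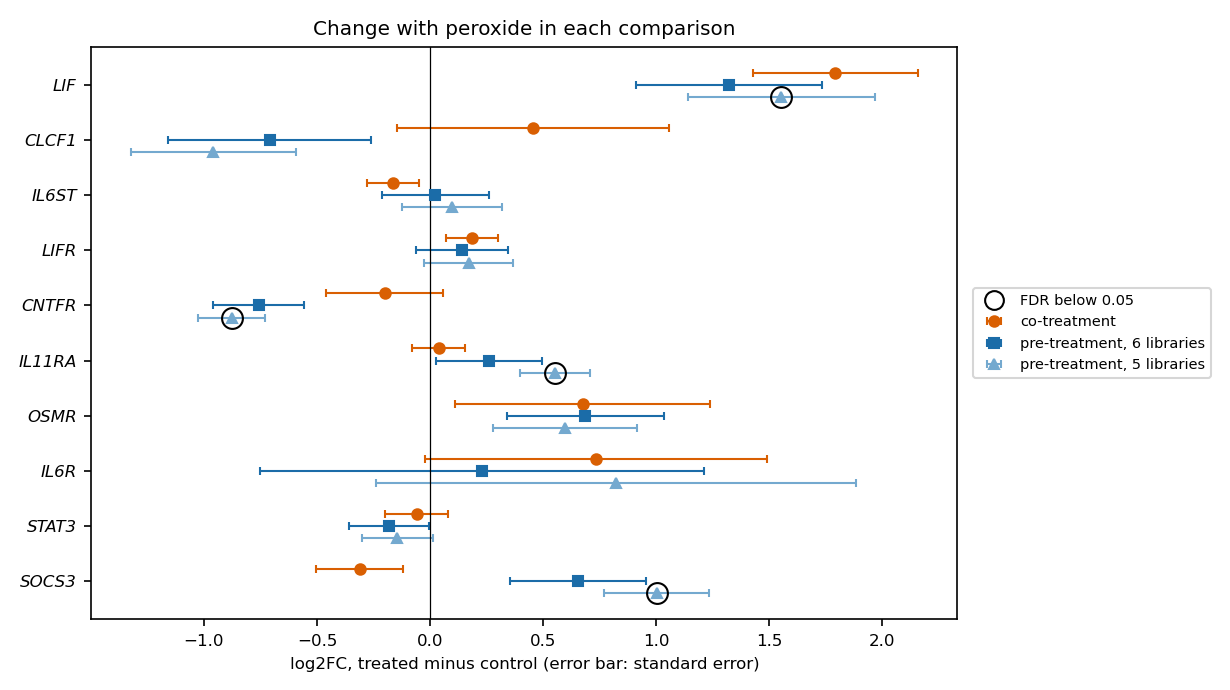
log2FC (treated minus control) of each gene in 3 comparisons, with the standard error as error bar; a black ring marks an FDR below 0.05 in edgeR's quasi-likelihood test. LIF lies at 1.79, 1.32 and 1.55, and the 4 rings are LIF, CNTFR, IL11RA and SOCS3 in the 5-library comparison.

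CLCF1, the other ligand of the list, had few reads (5 to 69 per library). It stood at 0.632, 0.213 and 0.731 CPM in co-treatment controls and at 0.178, 0.916 and 0.972 CPM in co-treated libraries, which overlapped (log2FC 0.46, FDR 0.920). In the pre-treatment experiment it was 1.05, 1.51 and 0.595 CPM in controls and 0.715, 0.735 and 0.426 CPM in pre-treated libraries, with a log2FC of -0.71 over 6 libraries (FDR 0.585) and -0.96 over 5 (FDR 0.0843). In both experiments the groups overlapped over 6 libraries, unlike those of LIF. Its annotated span overlaps RAD9A, and the strand setting of the counting is not given in the sources used here.

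IL6ST was expressed at 237, 253 and 262 CPM in co-treatment controls and at 228, 225 and 217 CPM in co-treated libraries. The groups did not overlap, with lower values after treatment as for 7.37% of all genes tested, and the log2FC of -0.16 (SE 0.12) did not pass the test (FDR 0.806). LIFR, its partner in the LIF receptor, was 32.6, 31.5 and 32.8 CPM in controls and higher in co-treated libraries, at 36.9, 36.2 and 36.9 CPM. Those groups also did not overlap, as for 6.58% of all genes in the higher direction, and the log2FC was 0.19 (SE 0.11, FDR 0.764). After pre-treatment, library 3 was low for both genes. IL6ST was 283, 242 and 279 CPM in controls and 316, 303 and 183 CPM in pre-treated libraries, and LIFR 38.1, 33.0 and 34.6 against 43.2, 42.9 and 28.1 CPM. Neither gene was called, with log2FC values of 0.02 and 0.14 over 6 libraries.

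CNTFR, the binding chain for CNTF and CLCF1, was lower in all 3 pre-treated libraries than in all controls, as 8.47% of all genes were over 6 libraries. It stood at 71.8, 95.9 and 57.8 CPM in controls and at 38.9, 45.6 and 45.9 CPM in pre-treated libraries. The log2FC was -0.76 (SE 0.20, FDR 0.320) over 6 libraries and -0.88 (SE 0.15, FDR 0.00540) over 5. The 5-library call was lost without control 2 (FDR 0.0532). In the co-treatment experiment CNTFR spread widely among controls, at 94.4, 53.5 and 38.9 CPM, and the co-treated libraries at 59.0, 44.2 and 59.3 CPM lay inside that range (log2FC -0.20, FDR 0.915). The difference between the responses was -0.59 (SE 0.39, FDR 0.643). CNTFR overlaps the antisense gene CNTFR-AS1.

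IL11RA lies 62.0 kb from CNTFR on chromosome 9 and was called in the opposite direction over 5 libraries. It stood at 28.3, 21.6 and 38.7 CPM in pre-treatment controls and at 36.8, 34.9 and 32.7 CPM in pre-treated libraries. Control 3 was above all pre-treated libraries and controls 1 and 2 were below them. The log2FC was 0.26 (SE 0.23, FDR 0.698) over 6 libraries and 0.55 (SE 0.16, FDR 0.0327) over 5, and the latter was not called with library size as the only scaling (log2FC 0.33, FDR 0.158). It was also not called without control 2 (FDR 0.207), pre-treated library 1 (0.112) or pre-treated library 2 (0.0902). After co-treatment IL11RA was 39.0, 36.7 and 41.8 CPM against 36.1, 38.6 and 40.0 CPM in controls (log2FC 0.04, FDR 0.974). Part of IL11RA overlaps CCL27 in the annotation.

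OSMR and IL6R were near the floor of the measurement. OSMR had 5 to 108 reads per library and stood above all controls in the pre-treated libraries, at 1.12, 1.26 and 0.889 CPM against 0.726, 0.789 and 0.564 CPM, as 7.97% of all genes did in that direction. Its log2FC was 0.69 (SE 0.35, FDR 0.501) over 6 pre-treatment libraries and 0.68 (SE 0.56, FDR 0.847) after co-treatment. OSMR overlaps RICTOR, and LIFR, 237.5 kb away on chromosome 5, overlaps LIFR-AS1. IL6R had 0 to 28 reads per library, with 0 in pre-treatment control 2, and no change was detectable at this depth.

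STAT3, the transcription factor downstream of these receptors, was not called in any comparison. It was 122, 102 and 97.9 CPM in co-treatment controls and 113, 86.9 and 108 CPM in co-treated libraries (log2FC -0.06, SE 0.14, FDR 0.966). In the pre-treatment experiment it was 110, 114 and 110 CPM in controls and 108, 104 and 76.7 CPM in pre-treated libraries. All pre-treated libraries were lower, as for 8.47% of all genes, and the log2FC of -0.18 (SE 0.18) did not pass the test (FDR 0.717).

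The fitted change of SOCS3 had opposite signs in the 2 experiments. It stood at 6.61, 7.64 and 8.39 CPM in co-treatment controls and at 6.22, 4.93 and 7.06 CPM in co-treated libraries (log2FC -0.31, SE 0.19, FDR 0.769). In the pre-treatment experiment it stood at 3.79, 3.20 and 5.88 CPM in controls and at 7.29, 7.42 and 5.31 CPM in pre-treated libraries. Pre-treatment controls 1 and 2 were the lowest of the 12 libraries for SOCS3, and control 3 lay above pre-treated library 3. The log2FC was 0.65 (SE 0.30, FDR 0.461) over 6 libraries and 1.00 (SE 0.23, FDR 0.0163) over 5. The 5-library call was lost without control 2 (FDR 0.118), pre-treated library 1 (0.0626) or pre-treated library 2 (0.0617). The difference between the responses was 0.95 (SE 0.35), with an unadjusted p of 0.0171 and an FDR of 0.522 over 12 libraries, and 1.26 with an FDR of 0.0252 without pre-treatment control 3.

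Of 9 further ligands of the family, 4 had enough reads to be tested and 0 were called in any comparison. CTF1 (cardiotrophin 1) was the highest, with a mean of 2.69 CPM. IL6 had 1 read in all 12 libraries, OSM and IL31 had 2 each, and IL27 had 0, which allows up to 0.00437 CPM (3 counts over all libraries, counting error only). IL11 was 1.43, 1.41 and 1.26 CPM in co-treatment controls and 2.74, 2.15 and 2.90 CPM in co-treated libraries, with a log2FC of 0.92 and an FDR of 0.210; it is named after its values were seen. IL31RA, a receptor chain, had 0, 0 and 1 reads in pre-treatment controls and 15, 3 and 10 reads in pre-treated libraries. In the co-treatment experiment it had 0 to 1 reads per control and 0 to 14 reads per co-treated library. Its 28 reads summed over the pre-treated libraries were 3.46-fold a floor of 3 counts over pre-treatment controls 1 and 2. That ratio leaves out control 3 and the counting error of the 28 reads, so it is not a lower bound. IL31RA passed the filter on low counts over 5 libraries through pre-treated libraries 1 and 3 alone. It was not tested in the other comparisons, and its FDR of 0.0453 over 5 libraries is not read as a result. IL27RA was the highest of the other receptor chains with a mean of 12.2 CPM.

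**Figure D4:**
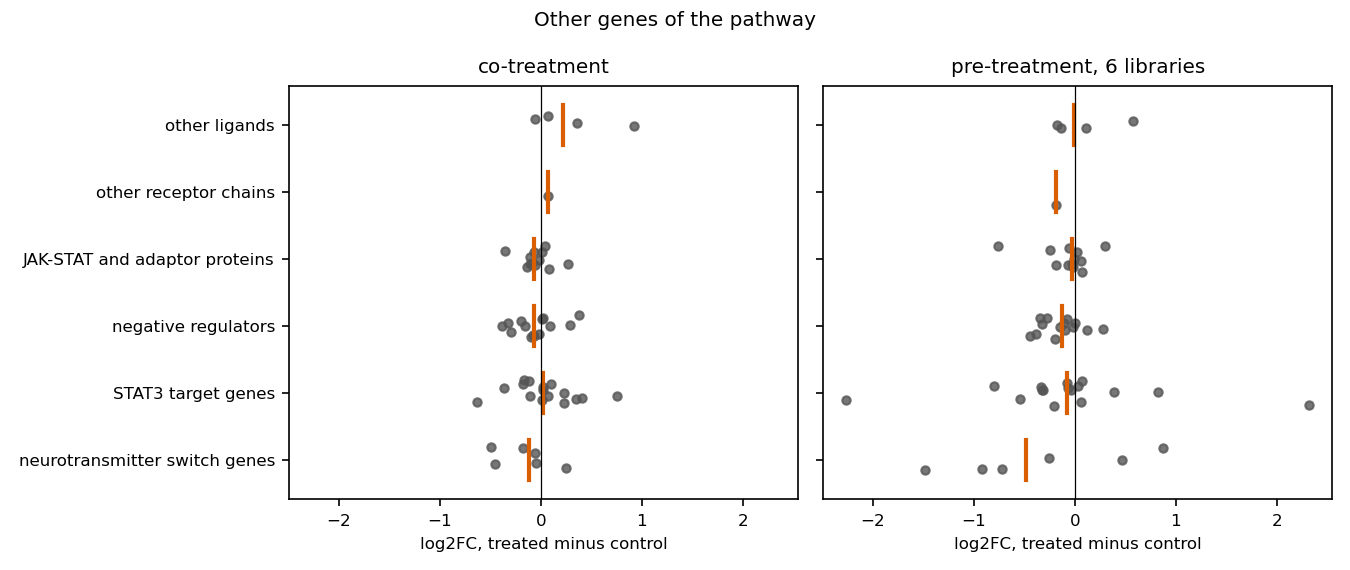
log2FC (treated minus control) of every tested gene of 6 further pathway lists after co-treatment (left) and over 6 pre-treatment libraries (right), 1 point per gene, with the orange bar at the list's median. None of these genes passed an FDR of 0.05 in these 2 comparisons.

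Of 12 JAK-STAT and adaptor proteins and 14 negative regulators, all were tested and 0 were called after co-treatment, over the 6 pre-treatment libraries or for the difference between the responses. Over 5 libraries 2 adaptor-type proteins were called lower, where 12.8% of all genes were. They were SOS1, a RAS exchange factor (log2FC -1.09, FDR 0.00188), and GAB1, a docking protein (log2FC -0.37, FDR 0.0362). The call of GAB1 was lost without control 1 (FDR 0.162), control 2 (0.124), pre-treated library 1 (0.118) or pre-treated library 2 (0.124), and that of SOS1 held in all 5 such fits. SOS1 was 187, 187 and 60.5 CPM in controls and 70.7, 84.2 and 95.8 CPM in pre-treated libraries. Control 3 was thus below all pre-treated libraries. In the co-treatment experiment SOS1 averaged 86.8 CPM in controls and 87.4 CPM in co-treated libraries, far below pre-treatment controls 1 and 2. Every 5-library fit with 1 library left out keeps control 1 or 2, so it cannot show a trait that they share. PIAS3, an inhibitor of STAT3, was the 1 negative regulator of 14 called lower (log2FC -0.55, FDR 0.0201). Its call was lost without control 2 (log2FC -0.44), pre-treated library 1 (FDR 0.0702) or pre-treated library 2 (FDR 0.0539). SHC1 was the highest gene of the first list and SOCS4 of the second, with means of 631 and 124 CPM. The medians of the 2 lists were -0.06 and -0.07 after co-treatment.

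Of 20 STAT3 target genes, 16 were tested and 0 were called after co-treatment or over the 6 pre-treatment libraries. Over 5 libraries EGR1, an immediate early transcription factor, was called lower (log2FC -2.64, FDR 0.00188). ICAM1, an adhesion molecule, was called higher (log2FC 2.27, FDR 0.0443). These were 1 of 16 in each direction, where 12.8% of all genes were called lower and 13.2% higher. The call of ICAM1 was lost without control 2 (FDR 0.183), pre-treated library 1 (0.109) or pre-treated library 2 (0.0967), and that of EGR1 held with any 1 library left out. EGR1 was 61.2, 68.8 and 16.8 CPM in controls and 10.8, 13.8 and 5.21 CPM in pre-treated libraries. These groups did not overlap, as for 8.47% of all genes in the lower direction over 6 libraries. In the co-treatment experiment EGR1 averaged 9.70 CPM in controls and 6.305 CPM in co-treated libraries, far below pre-treatment controls 1 and 2. Every 5-library fit with 1 library left out keeps control 1 or 2, so it cannot show a trait that they share. CCND1, which encodes cyclin D1, was the highest of the list with a mean of 929.8 CPM, and IER3 was at 0 reads in all libraries.

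Among 9 genes of the transmitter switch, 6 were tested and 0 were called after co-treatment or over the 6 pre-treatment libraries. Over 5 libraries VIP was called higher (log2FC 1.35, FDR 0.0273). DBH, which makes noradrenaline from dopamine, was called lower (log2FC -1.72, FDR 0.0259). Each was 1 of 6 tested, where 13.2% of all genes were called higher and 12.8% lower. The other 4 tested genes were not called, with log2FC values of -0.63 for CHAT and -0.82 for SLC18A3, the acetylcholine synthesis and vesicle genes, and of -0.62 for GAL and 0.80 for NPY, both peptides. The call of DBH was lost without control 2 (log2FC -0.75, FDR 0.273), pre-treated library 1 (0.0639) or pre-treated library 2 (0.0708), and that of VIP without control 2 (log2FC 0.83, FDR 0.0819) or pre-treated library 1 (0.0591). VIP was 16.2, 6.20 and 22.7 CPM in pre-treatment controls and 26.6, 22.8 and 32.4 CPM in pre-treated libraries. DBH was 377, 1097 and 354 CPM in controls and 123, 199 and 316 CPM in pre-treated libraries, and it was the highest gene of this list. In neither gene did the groups overlap over 6 libraries, as for 7.97% of all genes in the higher direction and 8.47% in the lower. VIP in control 3 lay close to pre-treated library 2. SST and TAC1 had 0 reads in all libraries.

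The genes whose level was most like that of LIF over the 12 libraries were BAG2, HBEGF, SSTR2, RAB31 and DRAM1, with Pearson's r of log2 CPM from 0.925 to 0.934 among 24406 genes. These points share 4 groups and 2 experiments, so r is a description. Their log2FC ran from 0.33 (BAG2) to 2.53 (SSTR2, a somatostatin receptor) after co-treatment and from 0.40 (BAG2) to 1.92 (SSTR2) over 6 pre-treatment libraries. HBEGF, a growth factor, was at 1.24 and 1.26. Because these genes were chosen for their likeness to LIF, no test of them is given. Among the members r with LIF was highest for LIFR at 0.618 and lowest for CNTFR at -0.415, and it was 0.225 for SOCS3.

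VIM, a mesenchymal marker that encodes vimentin, was also higher in all treated libraries than in the controls of both experiments. It was 9.85, 5.76 and 6.20 CPM in co-treatment controls and 15.5, 15.3 and 17.8 CPM in co-treated libraries (log2FC 1.16, FDR 0.0272). It was 3.07, 4.05 and 5.0 CPM in pre-treatment controls and 22.8, 19.4 and 21.7 CPM in pre-treated libraries (log2FC 2.42, FDR 0.0442). After co-treatment the call of VIM held without control 1 and was lost without control 2 (FDR 0.134), control 3 (0.0664) or co-treated library 1 (0.0705), 2 (0.0911) or 3 (0.205). Over 6 pre-treatment libraries it held without control 3 and was lost without any other library (FDR 0.178 to 0.408), as was that of COL3A1 (FDR 0.177 to 0.408). Of 11 such markers, 1 was called higher after co-treatment, where 0.335% of all genes were. Over 6 pre-treatment libraries 2 were (VIM and COL3A1), against 0.0242% of all genes. Over 5 libraries 5 were (with CD44, YAP1 and DCN), against 13.2%. YAP1 had 3 to 4 reads in each pre-treatment control and 14 to 93 in pre-treated libraries. It passed the filter on low counts through the pre-treated libraries alone, so its call is not read as a result. DCN had 4 to 33 reads in pre-treatment controls 1 and 2 and 133 to 344 in pre-treated libraries. The control with 4 reads was under that filter, so DCN also needed the pre-treated libraries to pass. Its call is not read as a result either, and the count of 5 above includes both genes. Of the markers tested, 1 after co-treatment, 3 over 6 and 2 over 5 pre-treatment libraries had a log2FC below 0. COL1A1 was at -1.65, -0.60 and -1.05 in these comparisons and was not called. With 1 library left out, the calls of CD44 and of YAP1 were each lost in 3 of 5 fits and that of DCN in 1. For each of these genes the fit without control 2 was among them. COL3A1, a fibrillar collagen, was also called for the difference between the responses (2.36, FDR 0.0353), a call lost in 8 of 12 fits with 1 library left out (FDR up to 0.136). Their summed level was 117 to 244 CPM in co-treatment controls, 221 to 241 CPM in co-treated libraries, 157 to 290 CPM in pre-treatment controls and 222 to 311 CPM in pre-treated libraries, and PRRX1 had 0 to 6 reads per library. Over 5 pre-treatment libraries the neuronal markers PHOX2A, GATA3 and MAPT and the immune marker CD14 were called lower and ISL1 and STMN2 higher, and with 1 library left out the call of STMN2 alone among these held in all 5 fits. Of 4 Schwann cell markers 0 were called in any comparison, and of the endothelial markers 0 of 1 tested. The part of these markers in the result for LIF was not tested.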

How the data were processed

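The deposited count files hold whole-number read counts per gene symbol, 1 file for each of 12 libraries, made by the authors from ribosome-depleted stranded total RNA with FastQC 0.11.8, Cutadapt 2.10, HISAT2 2.1.0 (hg19) and HTSeq 0.7.2, per the labels. The strand setting and annotation version are not given in the sources used here. The 5 closing entries that name no gene were left out. The authors' tables of fold changes and p-values were not used, and 0 columns of per-sample values were left out.

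The counts were fitted with edgeR 4.0.16 (TMM factors) under R 4.3.3. A gene was tested if its CPM came to 5 counts or more in the smallest library of the fit, in a number of libraries no smaller than the smaller group. Within each experiment edgeR's quasi-likelihood test compared treated with control, and the difference between the responses as an interaction over 12 libraries. Genes were called at a Benjamini-Hochberg FDR below 0.05 over all genes tested. In fits that leave 1 library in a group, it is assumed to vary like the others. The fits were also run on simulated counts in which libraries of a group shared the same mean levels. That run does not bear on the differences between the pre-treatment controls. Alternatives were DESeq2 1.42.0, other size factors, no filter, edgeR's exact test, a fold threshold, a replicate block, 1 shared fit and each library left out.

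Positions and exon lengths come from GENCODE v44 lifted to GRCh37, and levels between genes are CPM per kb of exon. The members and gene lists were chosen with earlier results of these data known. Named genes are the 10 members, the genes of the other lists called in any comparison, the highest gene and the genes at 0 of each pathway list, and the 5 genes most like LIF, and 1 gene that the rule names and the promoter sequences are not reported here.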

Additional observations from a re-analysis of the deposited data

How the results depend on the processing

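The number of members called after co-treatment was 0, and 1 (LIF) with DESeq2, RLE size factors, no filter and edgeR's exact test. All genes called numbered 132 in that comparison, 342 with DESeq2, 80 with library size as the only scaling (an alternative chosen after seeing the data), 535 with no filter, 333 with the exact test and 3 in 1 fit over 12 libraries. With library size as the only scaling 71.2% of the calls were higher, against 56.1%. Over the 6 pre-treatment libraries DESeq2 called 1 member (CNTFR, FDR 0.0400) and 705 genes, against 0 and 6, while library size as the only scaling gave 1 gene, no filter 319, the exact test 271 and 1 fit over 12 libraries 68. Over 5 libraries an absolute log2FC above 1 left 2 members (LIF and SOCS3) and 2952 of 6871 genes. Library size as the only scaling moved the median log2FC of all genes there from 0.011 to -0.208 and the share of higher calls from 50.8% to 22.1%, lost IL11RA and gained CLCF1 (FDR 0.0455). For the difference between the responses all genes called were 7, 106 with DESeq2, 4 when scaled by library size alone and 272 with no filter. The cause of these changes was not tested.

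These directions turned. IL6ST over 6 pre-treatment libraries, at 0.02, was -0.003 with DESeq2 and RLE size factors, -0.0419 when scaled by library size alone and -0.0035 in 1 fit over 12 libraries. Over 5 libraries, library size as the only scaling gave -0.0541 for LIFR and -0.13 for IL6ST. The difference for OSMR, at -0.0074, was 0.0192 with no filter.

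The residual correlation of same-numbered libraries was -0.0786 to -0.0435 in the co-treatment and -0.273 to 0.0264 in the pre-treatment experiment. No pairing by replicate number was seen, but with 3 libraries per group this check cannot exclude it. With a replicate block, 1 member (LIF, FDR 0.0451) and 181 genes were called after co-treatment, 0 genes over 6 pre-treatment libraries, 6 members (adding IL6ST and LIFR) and 10754 genes over 5, and 0 genes for the difference. The block also turned IL6ST over 6 libraries to -0.0114 and the difference for OSMR to 0.23.

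With 1 library left out, members called ranged from 0 to 1 after co-treatment, 0 to 4 over 6 and over 5 pre-treatment libraries and 0 to 1 for the difference, and all genes called from 18 to 223, 0 to 6871, 1677 to 8577 and 0 to 2058. The highest count over 6 libraries and for the difference was without pre-treatment control 3, and the lowest over 5 was without control 2. Log2FC ranges that crossed 0 were, after co-treatment, -0.45 to 0.23 for CNTFR, -0.0121 to 0.0803 for IL11RA and -0.14 to 0.045 for STAT3. Over 6 pre-treatment libraries they were -0.11 to 0.23 for IL6ST and -0.35 to 0.82 for IL6R, and over 5, -0.046 to 0.27 and -0.10 to 6.71. For the difference they were -0.16 to 0.11 for LIFR, -0.36 to 0.52 for OSMR and -1.95 to 0.0261 for IL6R. LIF kept its direction in every alternative run for each comparison. Counts of 0 to 28 for IL6R, 5 to 69 for CLCF1 and 5 to 108 for OSMR limit what can be detected for these genes.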
